A study of Mus musculus with 12 samples.

Results

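The genes described here are 39 genes of DNA replication and S phase, named one by one from a standard list of genes that cycle with DNA synthesis, and read in each of 12 single cells. They were chosen by name and function out of 21729 genes in the count table. Counts were found in every cell for 18 of the 39, all 18 among the 36 genes that averaged at least 10 CPM (counts of a cell rescaled to sum to 1000000), where 85.3% of all genes with such an average had counts in every cell. The cells are cultured cardiac progenitor cells (CPCs), which the labels describe as c-Kit+ cells of the non-myocyte fraction of hearts of 12-week-old FVB female mice, depleted of blood lineages by magnetic sorting and grown on gelatin through 5 passages with leukemia inhibitory factor, basic fibroblast growth factor, epidermal growth factor, insulin, B27 and N2. The growth medium of the study also held fetal bovine serum. The 12 cells form 1 group, and no treatment beyond this medium is named. The study pooled cells of separate hearts for culture, picked the cells by mouth pipette under a stereomicroscope and read full-length cDNA (Smart-Seq v4 kit). No label ties a cell to a culture or an animal, so the group counts as 1 sample and no test was made between cells. The study asked what culture does to such cells, their proliferation included, and fresh cells were not analysed here.

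Before S phase, the origin recognition complex, Cdc6 and Cdt1 load the ring of Mcm proteins onto DNA, a step called licensing, which geminin (Gmnn) blocks once S phase has begun. Cyclin E with its kinase and the joining of Cdc45 and the GINS complex then switch the loaded ring into an active helicase, and polymerases, clamp and clamp loader copy the DNA while ribonucleotide reductase and thymidylate synthase supply its building blocks. Most of these genes are targets of the E2F transcription factors, which retinoblastoma proteins hold in check in resting cells.

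Stretches of promoters are shown first, because the rule by which the genes were chosen used no sequence, and the binding motif of E2F was more frequent among them than among all promoters. RefSeq start-site windows of 300 bases (250 before and 50 after the annotated start, GRCm38.p6, the assembly that mm10 also names) were given for 29 of the 39 genes. The motif was searched on both strands in the spellings TTTCCCGC, TTTCGCGC, TTTGGCGC and TTTGCCGC. It was present in 12 of these 29 genes (41.4%), against 2.6% of all 27025 genes with a window. In each stretch below, given 5′ to 3′ on the strand of the gene, capitals mark the match, or a pair of overlapping matches on opposite strands, and the examples are licensing genes and genes whose level parted cell 12 from cell 8.
Mcm6, chr1:128359772-128359851, minus strand: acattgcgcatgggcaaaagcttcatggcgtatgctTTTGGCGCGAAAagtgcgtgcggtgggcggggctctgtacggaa
Mcm5, chr8:75109320-75109399, plus strand: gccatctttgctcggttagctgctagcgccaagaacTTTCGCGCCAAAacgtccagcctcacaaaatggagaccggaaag
Cdc6, chr11:98907977-98908056, plus strand: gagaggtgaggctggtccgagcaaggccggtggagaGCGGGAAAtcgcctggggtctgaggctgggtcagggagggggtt
Dtl, chr1:191575509-191575588, minus strand: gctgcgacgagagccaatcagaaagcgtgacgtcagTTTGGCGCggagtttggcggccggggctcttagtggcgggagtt
Hells, chr19:38930892-38930971, plus strand: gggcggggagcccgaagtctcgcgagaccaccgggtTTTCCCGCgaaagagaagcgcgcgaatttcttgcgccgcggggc
Pola1, chrX:93632250-93632329, minus strand: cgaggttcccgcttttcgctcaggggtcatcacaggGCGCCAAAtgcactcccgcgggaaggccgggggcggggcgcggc

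Mcm6 held 3 matches, the first of them 110 bases before the RefSeq start, and Mcm5 held 2, at 153 and 149 bases before it. The single match of Cdc6 lay 138 bases, that of Hells 62 bases and that of Dtl 8 bases before the start. Casp8ap2, Cdca7, Clspn, Pold3, Pola1, Ubr7 and Uhrf1 were the other genes with a match. The CCAAT box (CCAAT, bound by NF-Y) was present in 72.4% of the 29 genes and in 41.1% of all genes, the GC box (GGGCGG) in 69.0% and 38.2%, and the cell cycle homology region (TTTGAA), a motif of G2/M promoters, in 17.2% and 20.2%. Matches of different motifs can share bases. Windows were not given for Gmnn, Ccne2, Mcm4, Dscc1, Rfc2, Exo1, Tipin, Atad2, Usp1 and Gins2. A match describes the letters and was not taken as a bound site.

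Total counts ran from 3453708 to 5690184 per cell, so that a count of 0 allowed a level of up to 0.527 to 0.869 CPM (3 counts). Reads carry no molecular identifiers, and such limits and intervals cover counting error only. Of 7 markers fixed for the labelled progenitor cells, Kit was counted in 1 of the 12 cells, cell 10, at 3.94 CPM, while Ly6a, Gata4, Mef2c, Hand2, Cd34 and Eng were counted in every cell. Cells 3, 10 and 11 stood apart in the sum of 1 marker list each, cell 10 by several genes of it and cells 3 and 11 mainly by 1 gene. The 7 endothelial markers summed to 9763 CPM in cell 10 and to between 0.629 and 58.5 CPM elsewhere, the 5 haematopoietic markers to 1622 CPM in cell 3 (Cd53 at 1463 CPM, Cd68 at 69.1 CPM, Csf1r at 59.1 CPM and Lyz2 at 30.3 CPM, each highest in this cell, with Ptprc at 0) and to between 2.81 and 75.6 CPM elsewhere, and the 5 mural markers to 3726 CPM in cell 11 (Acta2 at 3668 CPM, with Rgs5 and Myh11 at 0) and to between 10.4 and 172 CPM elsewhere. The 7 fibroblast markers were lowest in cell 10 (188 CPM) and highest in cell 12 (6333 CPM). Of 5 cardiomyocyte markers only Tnnt2 had counts.

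Replication transcripts made up a small and very uneven share of the cells' counts. From cell 1 to cell 12, the 39 genes summed to 7559, 7743, 580.1, 1332, 2816, 1145, 669, 5478, 3632, 757, 545 and 5154 CPM. Cells 1 and 2 were highest and cells 8 and 12 next, cells 9 and 5 were intermediate, and cells 3, 4, 6, 7, 10 and 11 were low. The mean was 3118 ± 2745 CPM (SD, 12 cells). The share was 0.774% of all counts in cell 2 (exact 95% binomial interval 0.766 to 0.783%) and 0.0545% in cell 11 (0.0526 to 0.0565%), a 14.2-fold range. The median, 2074 CPM, fell in the gap between cells 4 and 5 and described no cell. On the mean of centred log2(CPM + 1) over the 39 genes the widest step between neighbouring cells was also there, at 1.50. Cells 3, 10 and 11, which stood apart in 1 marker list each, were all in the low part, at 580 CPM in cell 3, 757 CPM in cell 10 and 545 CPM in cell 11, and cell 7, which did not, was at 669 CPM. The part of those marker genes in the low levels was not tested.

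**Figure D1:**
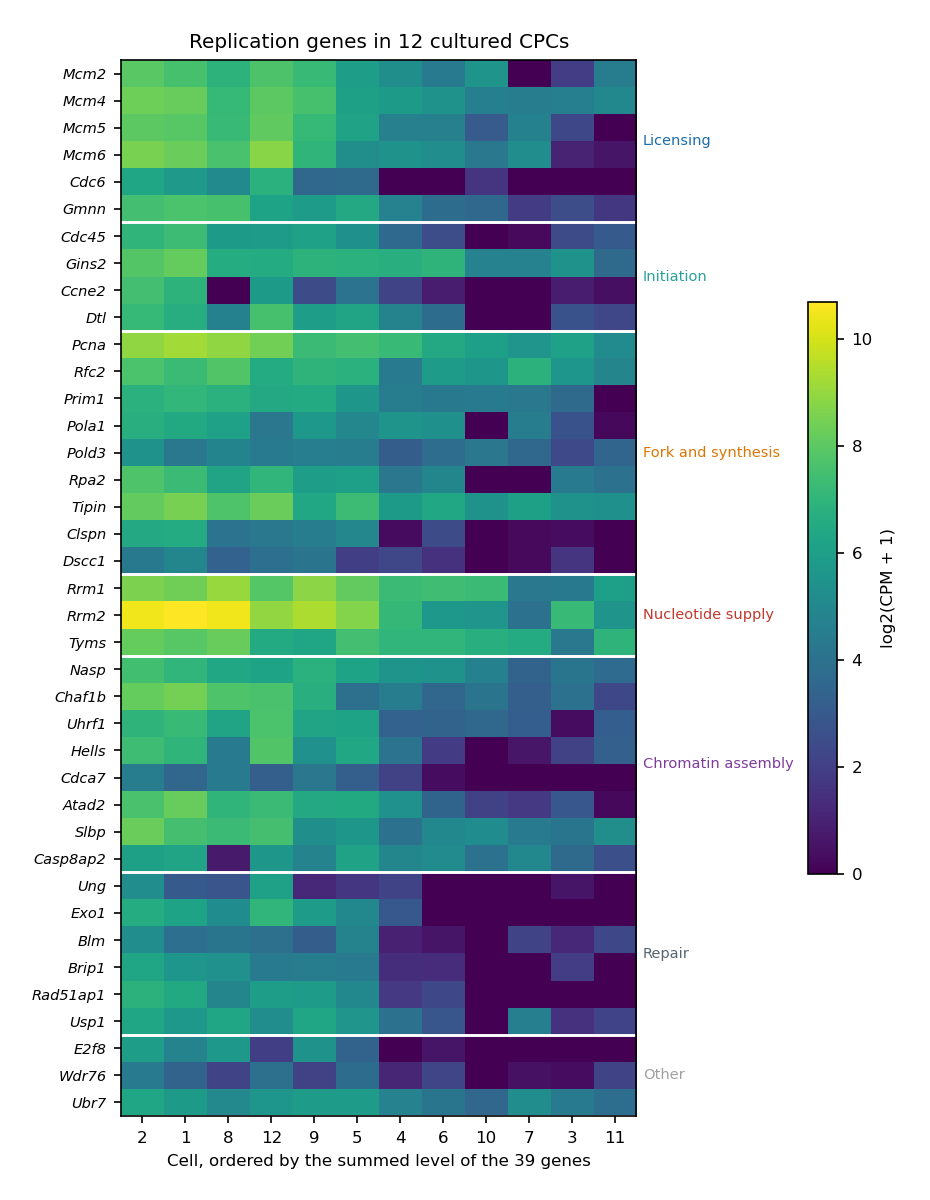
Heatmap of log2(CPM + 1) for the 39 replication genes (vertical axis, grouped by role) in 12 single cells (horizontal axis, ordered by the summed level of the genes, cell 2 with 7743 CPM on the left and cell 11 with 545 CPM on the right). The 6 cells on the left were bright across nearly all genes, and most of the values at 0 lay in cells 10, 7, 11 and 3.

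Values at 0 lay almost wholly in the low cells. Of 468 values, 50 were at 0, and 49 of those were in the 6 low cells. Cell 10 lacked counts for 17 members, cells 7 and 11 for 11 each, cell 3 for 5, cell 6 for 3 and cell 4 for 2. The single 0 among the other 6 cells was Ccne2 in cell 8. Cells 7, 10 and 11 were also cells with fewer genes in all (10069, 10057 and 10181, against 11216 to 11876 in cells 3, 4 and 6), although their totals were larger than those of cells 3, 4 and 6. Among genes of 30 to 100 CPM in the other cells, 2.59% were at 0 in cell 10, 1.17% in cell 11 and 0.978% in cell 7, and less in every other cell. In cells 8 and 12, with 10022 and 10036 genes, these shares were 0.475% and 0.415%. The part of this in the members' zeros was not tested. After every cell was thinned to 3453708 counts, cells 7, 10 and 11 had 13, 17 and 12 members at 0.

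Variation was measured gene by gene as the third highest cell over the third lowest, so that no single cell could set it. This ratio was at least 4 for 35 of the 39 genes, against 27.6% of the 14462 genes with a count. Among genes that averaged 10 CPM or more it was at least 4 for 32 of 36 members, against 20.5% of 8492 genes, and its median was 15.3 against 2.36. The filter on the mean admits a gene through its high cells, so the first count is the one over all members. Without cells 3, 10 and 11 the count with this filter was 25 of 38 members, against 7.60% of 8403 genes. The 4 members below 4 were Ubr7 (3.41), a ubiquitin ligase, the clamp loader subunit Rfc2 (3.26), thymidylate synthase Tyms (2.59) and the polymerase delta subunit Pold3 (2.22). Rfc2 exons overlap those of Lat2 over 15.1% of their length.

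The licensing genes had the widest range of the roles with counts in every cell. Their sum spanned a 40.6-fold range, with 36.1 CPM in cell 3 at the bottom and 1468 CPM in cell 2 at the top. Mcm2 (chromosome 6, 88883474 to 88898780, mm10), a subunit of the helicase ring, was at 193, 253, 2.90, 39.8, 61.7, 20.7, 0, 119, 154, 45.2, 22.0 and 209 CPM in cells 1 to 12. Mcm4 (chromosome 16, 15623897 to 15637400) was at 295, 327, 23.5, 55.6, 66.1, 44.1, 21.3, 144, 193, 23.3, 31.0 and 260.1 CPM in the same order. Cells 1, 2 and 12 were the 3 highest for both genes, and cells 8 and 9 came next.

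Mcm5 (chromosome 8, 75109569 to 75128439) was at 244, 259, 3.96, 24.2, 70.0, 24.7, 24.9, 151, 144, 7.32, 0 and 275 CPM in cells 1 to 12. Mcm6 (chromosome 1, 128331590 to 128359664) was at 303, 369.9, 1.05, 42.4, 38.0, 36.9, 37.3, 197, 128, 18.6, 0.541 and 446 CPM. Cell 12 was the highest cell for Mcm5 and Mcm6, where cell 2 was the highest for Mcm2 and Mcm4. Cdc6 (chromosome 11, 98907801 to 98923940), the loader of the ring, was at 52.7, 78.0, 0, 0, 11.9, 0, 0, 33.3, 11.3, 2.07, 0 and 113 CPM, with counts in 7 cells and its highest level in cell 12. Gmnn (chromosome 13, 24751845 to 24761923), the inhibitor of licensing, was at 205, 181, 4.75, 25.9, 87.4, 12.8, 2.66, 194, 58.5, 10.9, 2.35 and 73.8 CPM. It differed from the loading factors in cell 12, where it was below cells 1, 2, 5 and 8.

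Initiation genes had their lowest sum in cell 11 (23.3 CPM) and their highest in cell 2 (673 CPM). Cdc45 (chromosome 16, 18780447 to 18811987), a part of the active helicase, was at 161, 126, 4.48, 11.5, 40.8, 4.78, 0.190, 56.2, 69.6, 0, 7.22 and 59.0 CPM in cells 1 to 12. Gins2 (chromosome 8, 120578633 to 120589304), its GINS partner, was at 290.4, 226, 43.8, 105, 113, 124, 25.9, 98.0, 122, 25.5, 11.9 and 95.3 CPM and was the least variable of the 4, but 67.3% of its exon length is shared with exons of Gse1, so its count may include reads of that gene. Both were highest in cell 1. Ccne2 (chromosome 4, 11191351 to 11204779), the cyclin E2 gene, was at 119, 179, 0.791, 3.59, 15.7, 0.797, 0, 0, 4.61, 0, 0.361 and 56.2 CPM, so that only cells 1, 2 and 12 were above 20 CPM. Exons of Ints8 overlap 17.4% of its exon length. Dtl, which directs Cdt1 to destruction during S phase, ran from 0 to 194 CPM, with a median of 25.6 CPM and the highest value in cell 12.

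**Figure D2:**
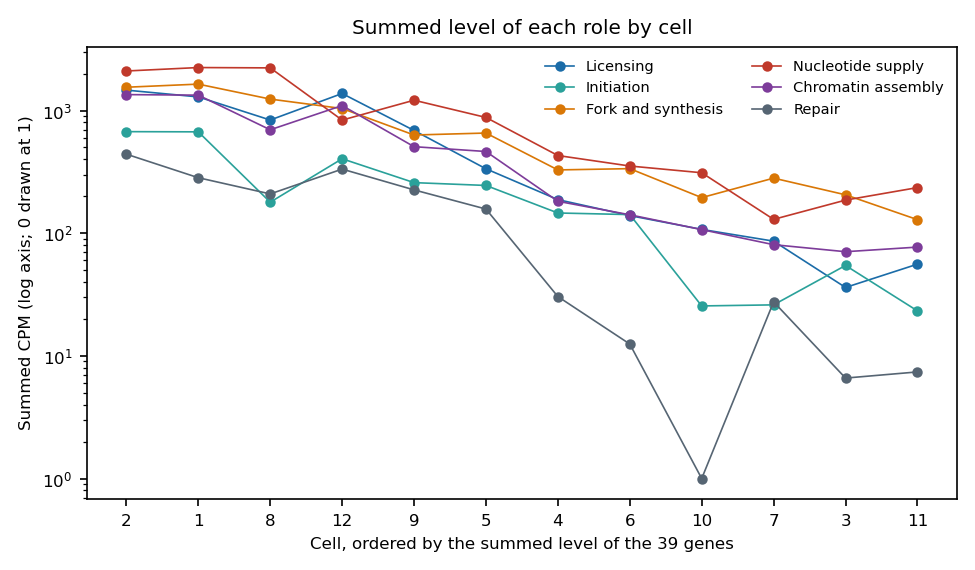
Summed CPM (log axis) of the genes of 6 roles in each of the 12 cells, ordered along the horizontal axis by the summed level of all 39 genes, with each point 1 cell and a sum of 0 drawn at 1. Licensing genes of cell 12 lay above its nucleotide supply genes (1377 and 836 CPM), whereas in cell 8 the order was the opposite (837 and 2228 CPM).

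Genes of nucleotide supply held the largest share of replication counts in 9 of the 12 cells. Rrm2 (chromosome 12, 24708241 to 24714146), the regulated subunit of ribonucleotide reductase, was at 1670.4, 1428, 148, 139, 419.7, 51.8, 15.0, 1406, 677, 46.8, 46.0 and 506 CPM in cells 1 to 12. Cells 1, 2 and 8 were far above the others, and cell 12 lay between cells 5 and 9. Rrm1 (chromosome 7, 102441695 to 102469771), the large subunit, was at 329.8, 389, 19.2, 158, 280.2, 170.3, 18.3, 527, 457, 157, 65.3 and 237 CPM, highest in cells 8 and 9. Tyms (chromosome 5, 30058202 to 30073617) was at 242, 284, 18.5, 133, 179, 131, 96.4, 295, 79.7, 107, 124 and 93.5 CPM, and it was nearly level over cells 4, 6, 10 and 11, which were low for most members. Per exon length, Rrm2 had the highest median level of the 39 genes, at 277 TPM (counts per exon length scaled to 1000000), followed by Pcna at 182 TPM and Tipin at 130 TPM, and Ung, E2f8, Wdr76 and Ccne2 were the lowest at 0.90, 0.96, 1.63 and 1.69 TPM.

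At the fork, Pcna (chromosome 2, 132249162 to 132253314), the sliding clamp, was at 598, 480.0, 69.6, 153, 183, 86.3, 47.4, 492, 156, 64.0, 34.5 and 343 CPM in cells 1 to 12, with counts in every cell and the highest values in cells 1, 8 and 2. The primase subunit Prim1 ran from 0 to 134 CPM, with a median of 35.9 CPM and the highest value in cell 1. The catalytic polymerase alpha subunit Pola1 ran from 0 to 104 CPM, with a median of 35.2 CPM and the highest value in cell 2, and in cell 12 it was at only 17.7 CPM. The single-strand binding protein gene Rpa2 ran from 0 to 214 CPM, with a median of 46.0 CPM and the highest value in cell 2. The fork protection gene Tipin ran from 40.2 to 365 CPM, with a median of 84.6 CPM and the highest value in cell 1. The checkpoint adaptor Clspn had 3 steps of level, at 93.8 and 88.4 CPM in cells 1 and 2, 16.0 to 30.0 CPM in cells 5, 8, 9 and 12, and 0 to 4.52 CPM in the other 6. Dscc1, of the alternative clamp loader, ran from 0 to 29.5 CPM, with a median of 3.41 CPM and the highest value in cell 1, Rfc2 from 21.1 to 223 CPM, with a median of 105 CPM and the highest value in cell 8, and Pold3 from 4.22 to 44.4 CPM, with a median of 18.0 CPM and the highest value in cell 2.

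Among genes that pack and mark new chromatin, Uhrf1 (chromosome 17, 56303321 to 56323486), which guides maintenance methylation, was at 153, 124, 0.264, 9.35, 73.6, 9.56, 8.18, 76.0, 74.4, 11.5, 8.30 and 203 CPM in cells 1 to 12. Hells (chromosome 19, 38930915 to 38971051), a chromatin remodeller, was at 127, 164, 3.16, 16.1, 84.0, 2.66, 0.571, 20.5, 41.9, 0, 8.84 and 221 CPM. Both were highest in cell 12, and in cell 8 Hells was closer to the low cells than to cells 1, 2 and 12. The histone chaperone Nasp ran from 9.70 to 178 CPM, with a median of 59.3 CPM and the highest value in cell 2. Chaf1b, of chromatin assembly factor 1, ran from 3.97 to 349.8 CPM, with a median of 19.2 CPM and the highest value in cell 1. Atad2 ran from 0.180 to 301 CPM, with a median of 64.1 CPM and the highest value in cell 1. Slbp, which binds histone mRNA, ran from 15.1 to 309 CPM, with a median of 39.1 CPM and the highest value in cell 2. Cdca7, the partner of Hells, was the weakest, from 0 to 21.7 CPM, with a median of 5.90 CPM and the highest value in cell 2. Casp8ap2 was the member least like the others by Pearson's r with their mean (0.34). By Spearman's rho Tyms was the least alike (0.47, against 0.56 for Casp8ap2). Casp8ap2 ran from 0.727 to 75.0 CPM, with a median of 29.9 CPM and the highest value in cell 1. Its level in cell 8, 0.727 CPM, was below that of every low cell.

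The repair genes had the largest share of zeros, and all 6 were at 0 in cell 10. Exo1, a nuclease, ran from 0 to 129.9 CPM, with a median of 18.8 CPM and the highest value in cell 12. Rad51ap1 ran from 0 to 116 CPM, with a median of 16.1 CPM and the highest value in cell 2. The helicase gene Brip1 ran from 0 to 76.5 CPM, with a median of 11.3 CPM and the highest value in cell 2, and the helicase gene Blm from 0 to 37.0 CPM, with a median of 5.97 CPM and the highest value in cell 2. The deubiquitinase Usp1 ran from 0 to 80.2 CPM, with a median of 30.3 CPM and the highest value in cell 8. Ung, which removes uracil from DNA, stood out in cell 12 (69.1 CPM) and cell 2 (37.0 CPM), with no other cell above 7.24 CPM. Of the remaining members, the repressor gene E2f8 was at 26.9, 63.7, 9.55, 51.6 and 44.2 CPM in cells 1, 2, 5, 8 and 9 while cell 12 had 2.99 CPM and the 6 low cells 0 to 0.531 CPM. Exons of Gm2788 overlap 11.2% of its exon length. Wdr76 ran from 0 to 20.2 CPM, with a median of 3.62 CPM and the highest value in cell 2, and Ubr7 from 10.5 to 76.8 CPM, with a median of 34.8 CPM and the highest value in cell 2.

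The members were high and low in largely the same cells. Over 630 pairs of the 36 members that averaged 10 CPM or more, the median Pearson's r of log2(CPM + 1) over 12 cells was 0.77, from 0.07 to 0.97, against 0.02 over pairs of all 8492 genes. With the mean of the other members, 30 of 36 had an r of at least 0.8, against 2.47% of all genes. Rad51ap1 (0.99), Exo1 (0.97), Mcm4 (0.97), Brip1 (0.96) and Atad2 (0.96) were closest to that mean, and Rfc2 (0.72), Tyms (0.56) and Casp8ap2 (0.34) were the farthest. The cells fell into a high and a low set, which by itself can give large r values, and all of them share 1 protocol. Within the 6 high cells alone (1, 2, 5, 8, 9 and 12) the median over member pairs was 0.46 (SD 0.37 over pairs) and within the 6 low cells 0.30 (SD 0.43). The sets were made from the members' own level after it had been seen, so nothing was read from these values, and none of the r values carries a test.

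Early genes, of licensing and initiation, were set against later replication genes in each cell. The early list held the licensing genes Mcm2, Mcm4, Mcm5, Mcm6 and Cdc6 and the initiation genes Cdc45, Gins2 and Ccne2, without Gmnn, which inhibits licensing, and without Dtl, and the later list held Pola1, Prim1, Pold3, Rfc2, Rpa2, Rrm1, Rrm2, Tyms, Clspn and Dscc1. The fork genes Pcna and Tipin were in neither list, and the lists were chosen with earlier results of these data known. Each gene was centred on its median over cells on the log2(CPM + 1) scale, and the lists were averaged. Early minus later was 1.17, 1.18, -0.58, 0.37, 0.24, -0.33, -0.28, -0.13, 0.48, 0.33, -0.21 and 1.94 in cells 1 to 12. Cell 12 stood at the top, cells 2 and 1 followed at the same value within 0.01, and cell 8 was the lowest of the 6 high cells. The early genes varied more widely than the later genes that averaged 10 CPM or more. Their median ratios of the third highest to the third lowest cell were 15.9 and 6.14. Early minus later can therefore differ with the overall level of the members, and the part of that level in these places was not tested. The range over cells was 2.52, and 1.66 with a pseudocount of 10. Cells 12, 2, 1 and 9 held the first 4 places in that order with narrower lists, with a pseudocount of 10, with the ratio of summed CPM and without cells 3, 10 and 11, while the places of the others changed. Pearson's r between the lists was 0.63 over the 6 high cells and 0.89 over the 6 low cells, and 0.96 over all 12, which span the gap between the sets. On summed CPM, early genes were 1.24 times the later genes in cell 12, 0.629 times in cell 2, 0.567 times in cell 1 and 0.289 times in cell 8.

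**Figure D3:**
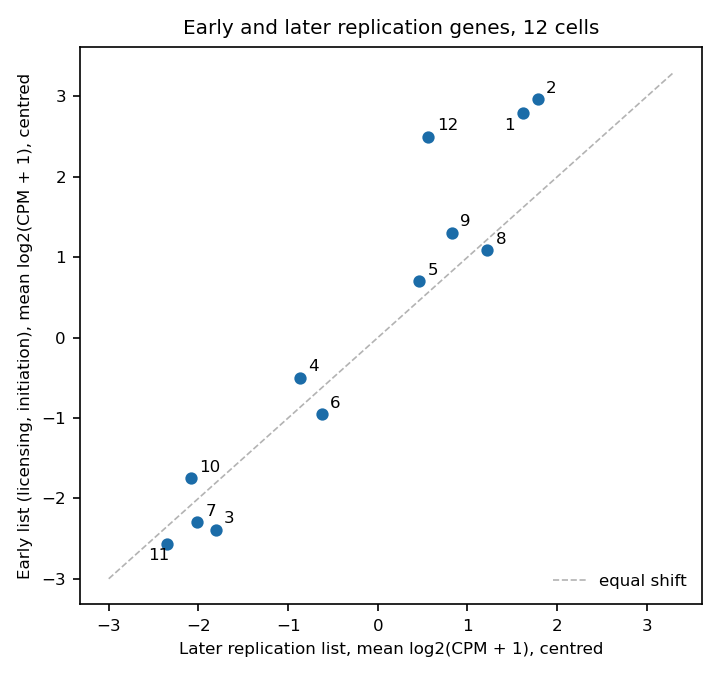
Mean centred log2(CPM + 1) of the early list of 5 licensing and 3 initiation genes (vertical axis) against the later replication list (horizontal axis), 1 point per cell, labelled by cell number, with a dashed line where both shifts are equal. Cell 12 lay farthest above the line, by 1.94, and cell 8 lay slightly below it, at 1.22 for later and 1.09 for early genes.

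Cells 8 and 12 had nearly the same amount of replication RNA (5478 and 5154 CPM) in a different mixture. This pair was chosen after the values had been seen. Licensing genes took 26.7% of the replication counts in cell 12 and 15.3% in cell 8, and nucleotide supply took 16.2% in cell 12 and 40.7% in cell 8. Mcm6 was 2.27 times, Mcm5 1.82 times, Mcm4 1.81 times and Mcm2 1.76 times as high in cell 12, and Cdc6 3.39 times. Dtl was 7.79 times, Hells 10.8 times and Ung 11.5 times as high there. Exo1 was 3.61 times and Casp8ap2 68.9 times as high in cell 12, the latter against 0.727 CPM in cell 8. Ccne2, at 0 in cell 8, was at least 103-fold higher in cell 12 (3 counts per library as the limit). In the other direction, E2f8 was 17.3 times, Pola1 3.85 times, Tyms 3.15 times, Rrm2 2.78 times and Rrm1 2.23 times as high in cell 8.

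The number of members that parted these cells was near that of other genes. Of 36 members, 7 were at least 3 times as high in cell 12 and 3 at least 3 times as high in cell 8, against 13.0% and 11.5% of all 8492 genes. The counts therefore do not set the members apart, and neither list lay wholly on one side. The 4 Mcm genes among the members and Cdc6 were higher in cell 12, but of the early list Cdc45 (1.05 times) and Gins2 (0.97 times) were nearly equal. Of the Mcm ring subunits outside the members, Mcm3 was higher in cell 12 (164 CPM, against 75.1 CPM in cell 8) and Mcm7 was higher in cell 8 (182 CPM, against 125 CPM in cell 12), both looked up after the pair was chosen. The 3 nucleotide supply genes, Gmnn, Pola1 and Rfc2 were higher in cell 8, whereas Rpa2 (1.78 times), Dscc1 (1.50 times) and Clspn (1.15 times) of the later list were higher in cell 12. Cells 1 and 2, by comparison, differed at least 3-fold in 1 of 36 members (Ung), against 10.7% of all genes.

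**Figure D4:**
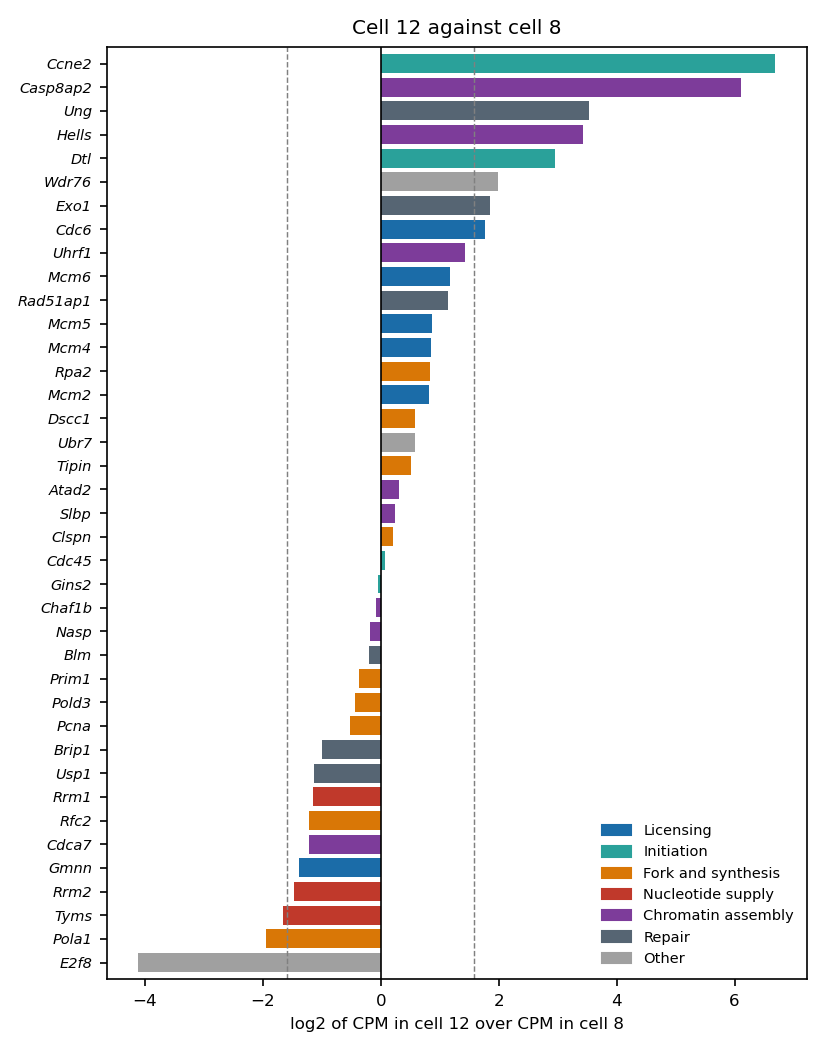
log2 of CPM in cell 12 over CPM in cell 8 (horizontal axis) for each of the 39 genes, coloured by role, with dashed lines at 3-fold and Ccne2 drawn with its 0 in cell 8 set to the level of 3 counts. Bars to the right (Ccne2, Casp8ap2, Ung, Hells, Dtl) are higher in cell 12, and bars to the left (E2f8, Pola1, Tyms, Rrm2, Gmnn) are higher in cell 8.

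Other genes of DNA replication, 44 in all, were read from a separate list. Of the 39 that averaged 10 CPM or more, 31 (79.5%) varied at least 4-fold by the measure above, against 20.5% of all 8492 genes. Their median r with the mean of the members was 0.84. The 6 most alike were the clamp loader subunit Rfc4 (0.97), the initiation factor Mcm10 (0.96), the fork protein Wdhd1 (0.96), the polymerase alpha subunit Pola2 (0.96), the GINS subunit Gins1 (0.95) and polymerase epsilon (Pole, 0.95). Rfc4 was at a lowest, median and highest level of 10.9, 38.0 and 132 CPM, Pola2 at 10.5, 32.4 and 99.0 CPM and Mcm10 at 0, 7.14 and 59.9 CPM. Over all 44 genes, the 4 least alike were 3 subunits of the origin recognition complex, Orc3 (-0.34), Orc4 (-0.08) and Orc5 (0.17), and the flap nuclease Fen1 (0.41). Orc3 and Orc4 were counted in every cell, at lowest, median and highest levels of 42.4, 89.9 and 134 CPM and 56.7, 128 and 229 CPM. Fen1 averaged below 10 CPM, and no cell held more than 11 counts of it. The other subunits Orc1, Orc2 and Orc6, added after their values had been seen, had r values of 0.81, 0.88 and 0.88.

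Among all other genes, ranked over 8411 genes that averaged 10 CPM or more and had counts in at least 6 cells, the 10 most alike were Rfc4, Mcm10, Wdhd1, Pola2, Gins1, Esco2, Hat1, Slfn9, Pole and Eri1, with r between 0.94 and 0.97, where the median gene had 0.06. Esco2 acetylates cohesin, Hat1 acetylates new histones and Eri1 trims histone mRNA. Hat1 was at a lowest, median and highest level of 36.8, 203 and 434 CPM and Eri1 at 14.6, 79.5 and 276 CPM.

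**Figure D5:**
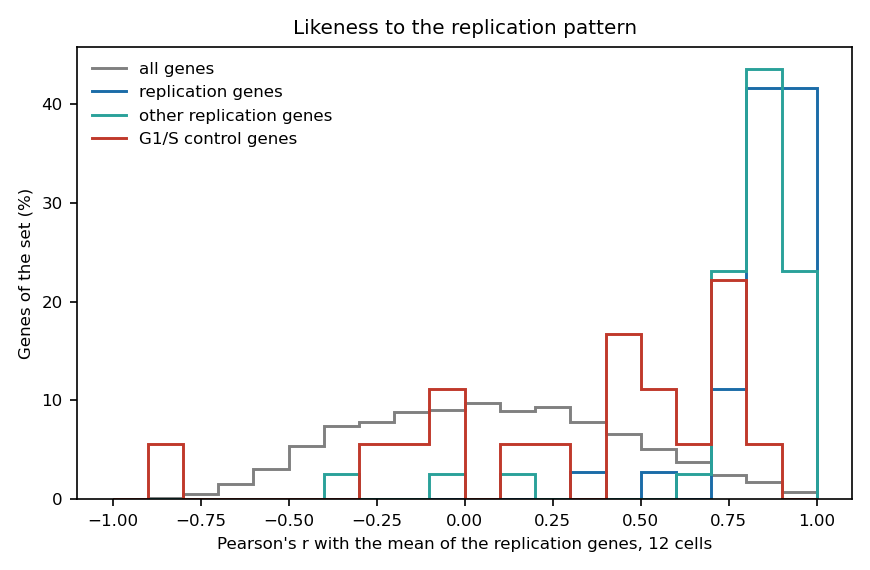
Share of genes (vertical axis, %) in steps of 0.1 of Pearson's r with the mean of the replication genes over 12 cells (horizontal axis), for the 36 members, 39 other replication genes, 18 G1/S control genes and all 8492 genes that averaged 10 CPM or more, each member being compared with the mean of the others. Members and other replication genes piled up above 0.8, and all genes spread widely around 0.

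Genes that control entry into S phase followed the replication genes only in part. Of 23 such genes, 18 averaged 10 CPM or more. Of these, 8 (44.4%) varied at least 4-fold, against 20.5% of all 8492 genes. Their median r was 0.48, against 0.06 over all 8492 genes. Over all 23 genes, the most alike were the repressor E2f7 (0.89), the pocket protein Rbl1 (0.87), Cdk2 (0.78), Rb1 (0.76), cyclin E1 (Ccne1, 0.76) and cyclin A2 (Ccna2, 0.71). Of these, E2f7 averaged below 10 CPM, with a median of 2.64 CPM. Ccne1 was at 616, 489, 8.70, 34.0, 6.37, 24.2, 11.8, 304, 46.5, 7.32, 44.9 and 117 CPM in cells 1 to 12, high in cells 1, 2 and 8. Ccna2, which rises through S phase to G2, was at 148, 155, 2.64, 0.959, 142, 4.52, 0, 299, 609, 14.1, 0 and 1.23 CPM. It was high in cells 9, 8, 2, 1 and 5 and at 1.23 CPM in cell 12. The least alike were the kinase inhibitors Cdkn2b (-0.84) and Cdkn2a (-0.44), E2f3 (-0.22) and Cdk6 (-0.13), and Cdkn1c had no counts. Cdkn2a also averaged below 10 CPM. The D cyclins, chosen after their values had been seen, were abundant without following the pattern, with medians of 902 CPM for Ccnd1 (r -0.03), 809 CPM for Ccnd2 (-0.06) and 244 CPM for Ccnd3 (0.11).

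Wide variation was not particular to the replication genes. Of 52 genes of G2 and mitosis, 50 averaged 10 CPM or more, and 43 of these (86%) varied at least 4-fold, against 20.5% of all 8492 genes. The 50 genes had a median ratio of 23.1 and a median r of 0.71 with the mean of the replication genes. Over the 12 cells the mean of the replication genes and that of the G2/M list had a Pearson's r of 0.80 and a Spearman's rho of 0.70, across the same gap between high and low cells. The order of the cells was in part another one. The G2/M sum was 6954, 6107, 1024, 2608, 12304, 3292, 1042, 9656, 17796, 1319.7, 968 and 2025 CPM in cells 1 to 12, so that cells 9 and 5, intermediate for replication genes, were the highest, and cell 12 was below cells 4 and 6. The replication genes summed to 2.55 times the G2/M genes in cell 12, 1.27 times in cell 2, 1.09 times in cell 1 and 0.567 times in cell 8. In cells 5 and 9 the ratio was 0.229 and 0.204. Cells 1, 2, 8 and 12, the 4 with the most replication RNA, thus differed in this ratio, and among them cell 12 had the highest early minus later value and cell 8 the lowest.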

How the data were processed

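Messenger RNA of 12 single cultured CPCs was read with the Smart-Seq v4 and Nextera XT kits. The authors mapped paired reads to mm10 with STAR (2.5.2b, per the labels), kept uniquely mapped reads and deposited raw counts per gene and cell. The counting program, annotation and strand rule are not given in the sources used here, so genes with overlapping exons (8 members) or close copies are uncertain. The cell filter of the study (1000 genes, mitochondrial counts of at most 10%) removed no cell.

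All other values were computed from the deposited counts with Python 3.11.15, numpy 2.4.6, pandas 2.3.3 and scipy 1.17.1, and figures with matplotlib 3.10.9. Columns were matched to cells by name. No 2 cells were the same library (chi-square per degree of freedom at least 42.3 over 66 pairs). CPM used the total of each cell, a pseudocount of 1 was used on the log2 scale, and zeros in ratios were set to 3 counts. Gene positions and exon lengths came from GENCODE vM21 (98.4% of symbols matched). No doublet caller was run, since each cell was picked by hand. The measures were checked on simulated counts. The members, lists and measures were chosen with earlier results of these data known. All members were named; of other lists the 6 most and 4 least alike genes, and of all other genes the 10 most and 5 least alike.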

Additional observations from a re-analysis of the deposited data

How the results depend on the processing

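Each of 6 summary values was computed again under 31 alternatives in all, and in 22 of them it moved by less than its spread (for counts, by at most 1.5 times). One of these 22 was the median summed level without cells 3, 10 and 11, which was 3632 CPM in place of 2074 CPM, a move within the SD over cells. That SD, 2745 CPM, was larger than the median, so no fall of the summed level could have counted as a move. The 9 alternatives without cells 3, 10 and 11 or within the 6 high or 6 low cells were chosen after seeing the data. The median r between members was 0.46 in the 6 high cells and 0.30 in the 6 low cells, in place of 0.77. The range of early minus later was 3.39 with narrower lists and 1.66 with a pseudocount of 10, which shrinks differences of low genes by construction, in place of 2.52. The r of early with later genes was 0.91 with narrower lists, 0.94 by Spearman, 0.94 without cells 3, 10 and 11, 0.63 in the 6 high cells and 0.89 in the 6 low cells, in place of 0.96. For the values that moved, other causes were not tested.

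Leaving out each cell in turn, members counted in every cell ran from 18 to 24 (without cell 10), the median summed level from 1332 CPM (without any 1 of the 6 high cells) to 2816 CPM (without any 1 of the 6 low cells), members that varied at least 4-fold from 29 to 32, the median r from 0.74 to 0.80, the range of early minus later from 1.76 (without cell 12) to 2.52, and the r of early with later from 0.951 to 0.978. At 2-fold 36 of 36 members passed, against 65.9% of all genes, and at 8-fold 25 of 36, against 9.41%. Depth limits values near 3 counts, and the number of cells limits all statements on patterns.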

Other observations

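The 5 genes whose pattern was most opposite to the replication genes were Serpinb6b (r -0.85), Chfr (-0.84), Cdkn2b (-0.84), Usp8 (-0.84) and Rilpl1 (-0.83), ranked over 8411 genes. Cdkn2b, an inhibitor of the kinases Cdk4 and Cdk6, was at 10.4, 4.20, 199.6, 57.8, 14.5, 66.9, 76.3, 4.55, 13.4, 18.4, 48.0 and 4.92 CPM in cells 1 to 12. It was at most 18.4 CPM in cells 1, 2, 5, 8, 9, 10 and 12 and at least 48.0 CPM in cells 3, 4, 6, 7 and 11, so that cell 10 was low for both Cdkn2b and the replication genes. Serpinb6b reached 159 CPM in cell 11 and Chfr, a checkpoint ubiquitin ligase, 35.7 CPM in the same cell. No test was made of these relations.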
